A study of Danio rerio with 42 samples.

Results

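Zebrafish larvae exposed to alcohol as embryos were compared with their unexposed siblings after both had been fed a high-fat, high-cholesterol (HFHC) diet. The comparison used 6 bulk RNA-Seq samples of the 42 in the series, taken by their labels: the 3 samples with 1% EtOH and the 3 with 0% EtOH among HFHC larvae collected at 13 days post-fertilization (dpf). It addresses whether larvae with embryonic alcohol exposure (EAE) carried a different transcriptome from controls under a diet challenge, in a study that also followed visceral adipose tissue. All larvae were of the AB strain. EAE larvae were kept in 1% EtOH from 12 hours post-fertilization to 5 dpf, control larvae were kept in 0% EtOH over the same time, and feeding started at 6 dpf with hatched artemia plus whole egg powder (HFHC diet) or with artemia alone (normal diet, ND). Each sample was the RNA of 15 whole larvae of mixed sizes homogenized together, and the tubes of a group are labelled as independent. Samples of a group were not said to come from different clutches, so p-values measure the spread between pools. The EAE ND and control ND larvae, with 3 samples each, are given only beside the genes of this comparison. So are 10 adult livers, from fish kept in 1% or 0% EtOH over the same embryonic window and later fed the HFHC diet for several weeks.

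Ethanol given over this window reaches the embryo while most organs form, and the larvae were sampled after a recovery period on food. Cholesterol, which egg powder supplies, represses its own synthesis: when membranes hold little sterol, the transcription factor SREBP2 is released and switches on the enzymes from acetyl-CoA to cholesterol. The skin and gut of a larva are epithelia that sit on a basement membrane of laminins and collagens, are held together by desmosomes, and are covered by mucus whose gel-forming proteins are the mucins. Because whole animals were homogenized, a lower level can mean fewer cells of a type or less RNA per cell, and these cannot be told apart.

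The 6 samples held between 19270865 and 22560201 counts, and the 12 larval samples between 18582927 and 39115243. Of 25935 genes listed, 19657 passed the filter on low counts and were tested. Levels are given as CPM, the share of a gene in its sample's counts scaled to a fixed total. Samples were scaled to each other by the TMM method. The common biological coefficient of variation was 7.35%. Markers of the organs of a whole larva were present: all 34 skeletal muscle, 37 neuronal and 31 liver genes of the marker lists were tested. The first principal component of the 6 samples held 27.7% of the variance. On it the EAE samples lay between 12.6 and 13.7 and the control samples between -25.1 and -1.93. The second component held 22.1%, with EAE samples between -7.77 and 4.41 and control samples between -17.3 and 25.6. The control samples were thus the more spread on both components.

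Few genes differed between EAE and control larvae on the HFHC diet. In the fit of all 12 larval samples, the lower called genes outnumbered the higher ones. Tested by edgeR's quasi-likelihood method, with p-values adjusted after Benjamini and Hochberg over all genes, 46 genes (0.234%) had an adjusted p below the threshold of 0.05, of which 16 (0.0814%) were higher and 30 (0.153%) were lower in EAE larvae. Among them, 33 had a log2 fold change above 0.5 in size and 10 above 1. The median log2 fold change of all genes was 0.01. At an unadjusted p under 0.05 there were 1633 genes (8.31%), made up of 811 higher genes (4.13%) and 822 lower genes (4.18%). In all 46 genes the 3 EAE samples did not overlap the 3 control samples, as in 14.2% of all genes tested (7.5% with EAE higher and 6.72% with EAE lower). A gene symbol that is not a clone or locus name was carried by 34 of the 46, of which 10 were higher and 24 lower.

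The count of genes, and its split into higher and lower ones, changed when single pools were left out. Each such fit also has fewer samples, and the part of that in the changed counts was not tested. Without control HFHC replicate 2, 8 genes were called and without control HFHC replicate 3, 60 were, while leaving out any of the other 4 samples gave 11 or 12. Of the 46 genes themselves, 12, 10 and 9 kept their call without EAE replicates 1, 2 and 3, and 12, 7 and 30 kept it without control replicates 1, 2 and 3. In all, 40 lost it in at least 1 of these fits and 11 in every one. The direction of all 46 genes was kept in every one of these fits. That was all but fixed in advance, because in each of them the EAE and control samples did not overlap. In all of these fits 6 genes kept an adjusted p under 0.05, among them muc5.3 and 4 genes with clone names. Control replicate 2 held the highest value of the 6 samples in 22 of the 30 lower genes. Below, the number of leave-one-out fits out of 6 that kept a call is given beside the gene, where it is not all 6.

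**Figure D1:**
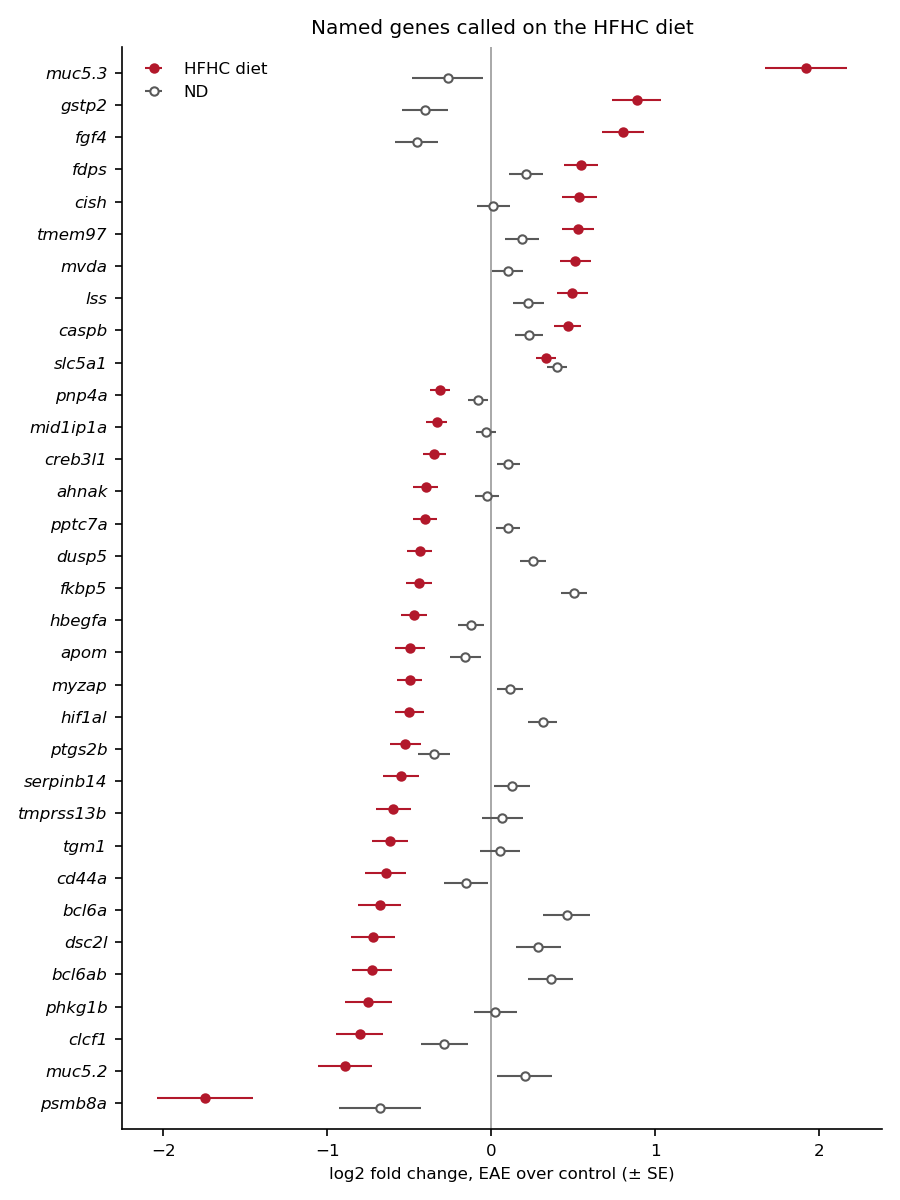
Log2 fold changes of EAE over control larvae (± SE) for 33 of the 34 called genes with a gene symbol, on the HFHC diet (filled) and on ND (open), 3 samples in each group. On the HFHC diet muc5.3 had the highest value, 1.92, and psmb8a the lowest, -1.75, while fkbp5 was at 0.50 on ND.

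Several of the lower genes are known from epithelia, cell adhesion or tissue repair, a grouping made after their values were seen. tgm1, a transglutaminase that cross-links the outer layer of mammalian skin, averaged 30.4 ± 1.9 CPM in EAE HFHC larvae and 46.8 ± 7.7 CPM in control HFHC larvae (SD, n = 3 each; log2 fold change -0.62, edgeR adjusted p = 0.0321, 1 of 6 fits). dsc2l, a desmosomal cadherin, was at 146, 135 and 122 CPM in EAE HFHC larvae, against 198, 267 and 201 CPM in control HFHC larvae (log2 fold change -0.72 ± 0.14, where ± is the SE of a fold change here and below, edgeR adjusted p = 0.0376, 1 of 6 fits). In both genes the groups did not overlap, as in all 46 called genes. On ND the EAE and control means were 18.9 and 18 CPM for tgm1 and 100.2 and 81.9 CPM for dsc2l. cd44a, a receptor for the matrix polymer hyaluronan, had a mean of 10.4 CPM in EAE HFHC larvae and 16.3 CPM in control HFHC larvae (-0.64, edgeR adjusted p = 0.0476, 0 of 6 fits). The membrane protease gene tmprss13b averaged 5.00 CPM in EAE HFHC larvae and 7.55 CPM in control HFHC larvae (-0.60, edgeR adjusted p = 0.0321, 0 of 6 fits). The scaffold protein gene ahnak averaged 625 ± 41 CPM in EAE HFHC larvae and 825 ± 76 CPM in control HFHC larvae (-0.40, edgeR adjusted p = 0.0376, 1 of 6 fits).

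Of the genes for secreted signals and their effectors, likewise grouped after their values were seen, hbegfa, dusp5, ptgs2b and clcf1 were lower, whereas fgf4 and caspb, described further on, were higher. The list of inflammation and tissue remodelling genes had ptgs2b as its 1 called member of 29 tested, against 0.234% of all genes, and a median log2 fold change of -0.06. hbegfa (chr14:6742203-6745213 on GRCz10, the build of all positions given), which encodes a heparin-binding ligand of the EGF receptor, was at 31.6, 31.3 and 33.9 CPM in EAE HFHC larvae, against 44.6, 44.7 and 44.5 CPM in control HFHC larvae. The 3 controls were nearly equal, and the log2 fold change was -0.47 ± 0.08 (edgeR adjusted p = 0.0268, 1 of 6 fits). dusp5 (chr22:29962131-29973677), a nuclear phosphatase that switches off ERK, was at 39.8, 34.6 and 33.0 CPM in EAE HFHC larvae and 47.5, 47.0 and 50.8 CPM in control HFHC larvae (-0.44, edgeR adjusted p = 0.0268, 1 of 6 fits). ptgs2b, a cyclooxygenase-2 that starts prostaglandin synthesis, was at 87.1, 75.2 and 71.9 CPM in EAE HFHC larvae, against 112, 119 and 106 CPM in control HFHC larvae (-0.53, edgeR adjusted p = 0.0321, 2 of 6 fits). The IL-6 family cytokine gene clcf1 (chr14:21725196-21741151) had 4.50, 3.35 and 3.36 CPM in EAE HFHC larvae and 5.79, 7.41 and 6.41 CPM in control HFHC larvae (-0.80, edgeR adjusted p = 0.0321, 3 of 6 fits). In each of these 4 genes every EAE sample was below every control sample. All 46 called genes were separate in this way, and 6.72% of all genes were, with EAE lower. il1b, the interleukin-1 beta gene, did not pass, with 1.95, 1.53 and 1.4 CPM in EAE HFHC larvae and 3.81, 3.68 and 3.19 CPM in control HFHC larvae (-1.12 ± 0.24, edgeR adjusted p = 0.0727).

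**Figure D2:**
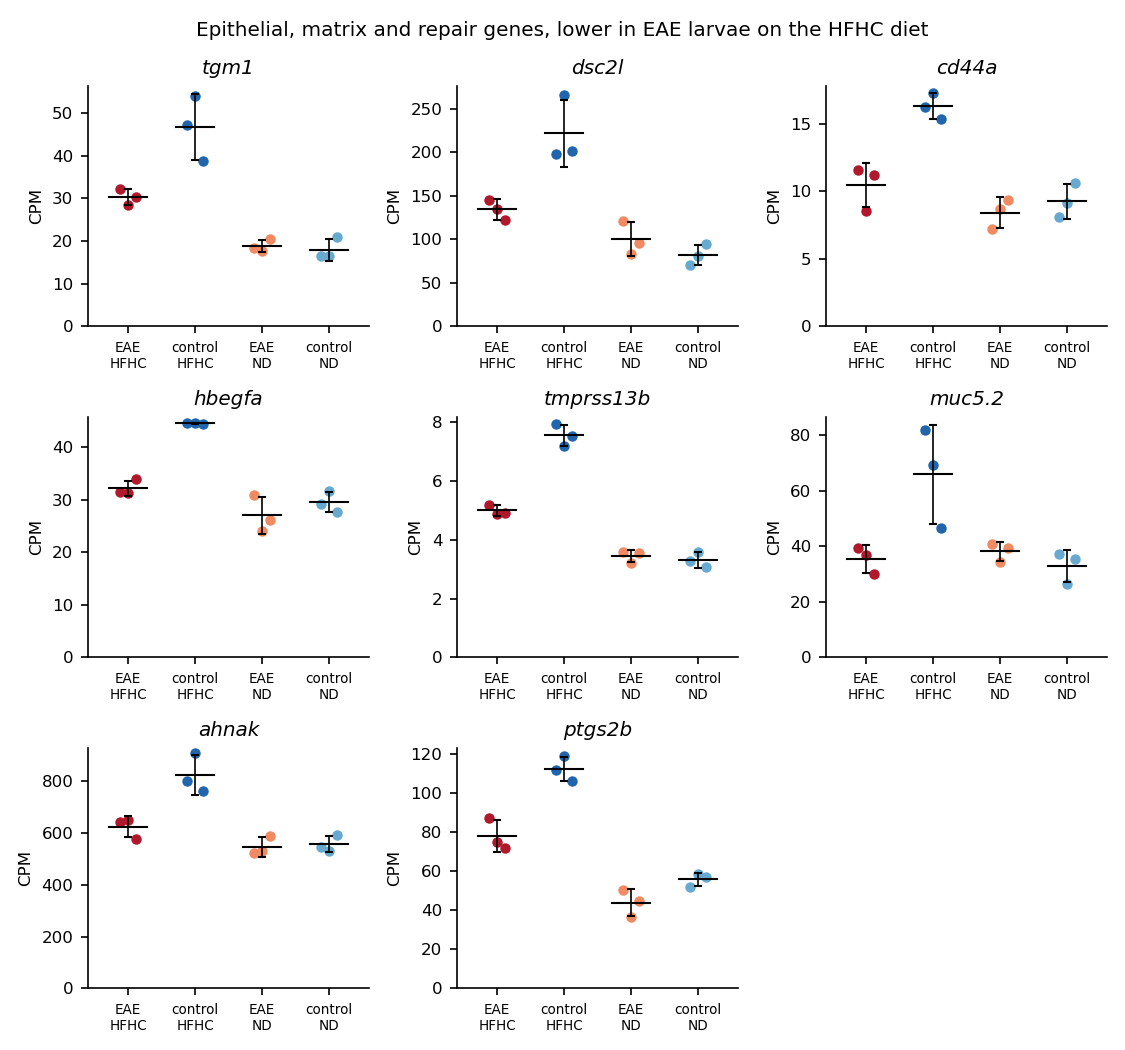
CPM of 8 lower genes in each pool (points), with the mean (bar) and SD (whiskers) of 3 pools, in EAE HFHC, control HFHC, EAE ND and control ND larvae. In every panel the control HFHC pools were the highest, as for tmprss13b with means of 5.00 CPM in EAE HFHC larvae and 7.55 CPM in control HFHC larvae.

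Genes of the hemidesmosome, the junction that fastens epithelia to their basement membrane, lay just outside the threshold. itga6b and itgb4 encode subunits of its integrin, and col17a1b a collagen of the same junction. itga6b had 83.5, 76.1 and 76.6 CPM in EAE HFHC larvae, against 144, 181 and 110 CPM in control HFHC larvae (-0.88 ± 0.18, edgeR adjusted p = 0.0539). itgb4 had 103, 103 and 94.1 CPM in EAE HFHC larvae, against 179, 238 and 136 CPM in control HFHC larvae (-0.88 ± 0.19, edgeR adjusted p = 0.0740). For col17a1b the adjusted p was 0.0532 by edgeR at a log2 fold change of -0.53. The laminin chain genes lama5 and lamc1 had log2 fold changes of -0.04 and -0.09. Of 34 laminin, hemidesmosome and basement membrane genes tested, 30 lay below 0 and 4 above, while 51.6% of all genes were above 0. The list median was -0.07. At an unadjusted p under 0.05, 6 were lower (4.18% of all genes) and 0 higher (4.13% of all genes).

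Keratins and other bulk markers of skin differed little. krt4 had a log2 fold change of -0.06, krt5 of -0.10 and krt8 of -0.07 in EAE over control HFHC larvae, and none passed the test (edgeR adjusted p = 0.887, 0.845 and 0.845). The 25 epidermis and keratin genes tested summed to between 19134 and 21232 CPM in EAE HFHC larvae, against 18502 and 23268 CPM in control HFHC larvae, ranges that overlap. Of this list 6 genes had an unadjusted p under 0.05, all lower in EAE larvae (4.18% of all genes), and dsc2l was called. The others were evpla and ppl, which form the plaque of epithelial cells, the desmosomal dspa, and the annexins anxa1a and anxa1c, with log2 fold changes between -0.40 and -0.20. The part of skin content in the lower levels of these epithelial genes was not tested.

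The mucin genes split. muc5.3 (chr7:72041890-72088651) was at 11.2, 15.9 and 16.9 CPM in EAE HFHC larvae, against 4.91, 1.97 and 4.51 CPM in control HFHC larvae, a log2 fold change of 1.92 ± 0.25 (edgeR adjusted p = 0.00427). muc5.2 (chr25:8330824-8368332) went the other way, with 39.5, 36.9 and 29.9 CPM in EAE HFHC larvae and 81.8, 69.2 and 46.7 CPM in control HFHC larvae, a log2 fold change of -0.89 ± 0.16 (edgeR adjusted p = 0.0358, 1 of 6 fits). For both mucins the control HFHC larvae were the group away from ND levels, with EAE and control ND means of 12.1 and 14.5 CPM for muc5.3 and of 38.2 and 32.9 CPM for muc5.2. muc5.1, a further gel-forming mucin, measured 532, 519 and 473 CPM in EAE HFHC larvae and 522, 516 and 538 CPM in control HFHC larvae. The goblet cell gene agr2 had a log2 fold change of 0.01. Of 11 mucin and goblet cell genes tested, these 2 mucins were called, against 0.234% of all genes. Mucins of this family share repeats, and the program that counted the larval reads is not given in the sources used here, so reads may be divided between copies.

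Among lower genes were several transcriptional regulators. bcl6ab (chr2:10289514-10300371) and bcl6a, which belong to the BCL6 family of zinc finger repressors, were lower together. bcl6ab was at 12.2, 11.2 and 14.5 CPM in EAE HFHC larvae, against 23.0, 22.3 and 17.3 CPM in control HFHC larvae (-0.73 ± 0.12, edgeR adjusted p = 0.0268, 2 of 6 fits). bcl6a was at 14.5, 13.9 and 17.4 CPM in EAE HFHC larvae, against 29.9, 22.9 and 20.5 CPM in control HFHC larvae (-0.68 ± 0.13, edgeR adjusted p = 0.0444, 1 of 6 fits). Reads of paralogues may be shared, although these 2 genes lie on different chromosomes. hif1al (chr15:25568688-25592316), a hypoxia-inducible factor alpha-subunit gene, had 110, 132 and 122 CPM in EAE HFHC larvae, against 172, 176 and 167 CPM in control HFHC larvae (-0.50, edgeR adjusted p = 0.0321, 1 of 6 fits). creb3l1, a transcription factor held in the endoplasmic reticulum membrane, averaged 24.1 CPM in EAE HFHC larvae and 30.8 CPM in control HFHC larvae (-0.35, edgeR adjusted p = 0.0476, 1 of 6 fits).

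Glucocorticoid-responsive genes included another lower member, fkbp5, a co-chaperone of the glucocorticoid receptor that cortisol induces. It had 420, 440 and 427 CPM in EAE HFHC larvae, against 555, 584 and 607 CPM in control HFHC larvae (-0.44 ± 0.08, edgeR adjusted p = 0.0321, 0 of 6 fits). On ND its order was turned round, with 255, 260 and 259 CPM in EAE larvae, against 212, 160 and 175 CPM in control larvae (0.50, edgeR adjusted p = 0.0122). Of 24 genes of the list tested, 19 were below 0 and 5 above on the HFHC diet, while 51.6% of all genes were above 0. At an unadjusted p under 0.05, 8 were lower (4.18% of all genes) and 1 higher (4.13% of all genes), and the list median was -0.17. Members short of the threshold included klf9 (-0.28), hsd11b2 (-0.38), tsc22d3 (-0.23) and the gluconeogenic gene pck1 (-0.20). The turn on ND was not particular to fkbp5: the list median there was 0.15, with 2 members called higher in EAE larvae. The other was pck1 (0.41 on ND, edgeR adjusted p = 0.0147), whose difference between diets had an edgeR adjusted p of 0.0145. The glucocorticoid receptor gene itself, nr3c1, had a log2 fold change of 0.19 (edgeR adjusted p = 0.304). The list summed to between 3011 and 3199 CPM in EAE HFHC larvae and between 3474 and 3501 CPM in control HFHC larvae, which did not overlap. Abundant members weigh most in such sums, among them fkbp5 and pck1, whose EAE and control HFHC means were 429 and 582 CPM, and 657 and 754 CPM. Sums of the inflammation list (EAE lower) and of the cholesterol synthesis and cell cycle lists (EAE higher) did not overlap either.

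The remaining lower genes had varied roles. psmb8a (chr19:7186913-7225623), a catalytic subunit of the immunoproteasome, had the largest fold change among named lower genes but a low level, with 0.799, 1.12 and 1.05 CPM in EAE HFHC larvae, against 3.20, 3.63 and 3.23 CPM in control HFHC larvae (-1.75 ± 0.29, edgeR adjusted p = 0.0268, 1 of 6 fits). myzap (chr7:52114888-52142707), a protein of cell junctions, was at 30.3, 29.6 and 28.6 CPM in EAE HFHC larvae, against 40.6, 44.9 and 39.5 CPM in control HFHC larvae (-0.50, edgeR adjusted p = 0.0149, 3 of 6 fits). For metabolism, apom, which carries lipids on high-density lipoprotein, had 72.8, 68.5 and 86.6 CPM in EAE HFHC larvae, against 117, 103 and 101 CPM in control HFHC larvae (-0.50, edgeR adjusted p = 0.0376, 2 of 6 fits). mid1ip1a, whose mammalian counterpart activates acetyl-CoA carboxylase, had a log2 fold change of -0.33 (edgeR adjusted p = 0.0358, 1 of 6 fits), and phkg1b, a subunit of the kinase that starts glycogen breakdown, one of -0.75 (edgeR adjusted p = 0.0412, 0 of 6 fits). The last named genes were the mitochondrial phosphatase gene pptc7a (-0.40), the purine nucleoside phosphorylase gene pnp4a (-0.31) and the serpin gene serpinb14 (-0.55), with adjusted p-values between 0.0321 and 0.0480 by edgeR and a call in at most 1 of 6 fits.

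Genes of cholesterol synthesis lay mostly above 0 in EAE over control HFHC larvae. Of 25 genes written in the list, 23 were in the table and all were tested. Of these, 20 lay above 0, against 51.6% of all genes. In that direction 18 had an unadjusted p under 0.05, against 4.13% of all genes, and none in the other. The median log2 fold change was 0.31, against 0.01 for all genes, and 3 members were called, against 0.0814% of all genes called higher. fdps (chr16:14103231-14133011), farnesyl diphosphate synthase, was at 246, 187 and 202 CPM in EAE HFHC larvae, against 135, 162 and 136 CPM in control HFHC larvae (0.55 ± 0.10, edgeR adjusted p = 0.0376, 0 of 6 fits). mvda (chr18:31078889-31090423), which decarboxylates mevalonate diphosphate, was at 56.2, 42.6 and 47.5 CPM in EAE HFHC larvae, against 31.8, 36.1 and 34.8 CPM in control HFHC larvae (0.51 ± 0.09, edgeR adjusted p = 0.0365, 1 of 6 fits). lss, lanosterol synthase, closes the sterol rings and was at 69.7, 56.7 and 57.5 CPM in EAE HFHC larvae, against 42.2, 48.9 and 39.7 CPM in control HFHC larvae (0.49 ± 0.09, edgeR adjusted p = 0.0424, 0 of 6 fits). The EAE and control pools of these enzymes were separate, as in all 46 called genes, by margins smaller than the spread inside the EAE group.

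The other enzymes differed by less, and none was called. From the top of the pathway, hmgcs1 had a log2 fold change of 0.34 (edgeR adjusted p = 0.216), while the rate-limiting reductases hmgcra (-0.02) and hmgcrb (-0.05) lay at 0. Next to the threshold were hsd17b7 (0.38, edgeR adjusted p = 0.0720), dhcr7 (0.28, edgeR adjusted p = 0.0991) and tm7sf2 (0.41, edgeR adjusted p = 0.0998), all of the late steps. Values between 0.23 and 0.38 with an unadjusted p under 0.05 were also found for acat2 (0.26), mvk (0.28), pmvk (0.36), idi1 (0.28), fdft1 (0.33), sqlea (0.25), cyp51 (0.23), msmo1 (0.31), nsdhl (0.38), ebp (0.37) and sc5d (0.31). ggps1, which leads away from sterols, had a log2 fold change of -0.12. Outside the list, tmem97 (chr15:23854792-23858376), a sterol-responsive membrane protein gene in human cells, was called with 23.2, 19.8 and 22.2 CPM in EAE HFHC larvae, against 13.3, 16.3 and 15.6 CPM in control HFHC larvae (0.53 ± 0.10, edgeR adjusted p = 0.0376, 0 of 6 fits). The enzymes moved with single pools: EAE replicate 1 held the highest of the 6 values in 19 of 23 genes, and without it the median was 0.22, with the control replicates left out in turn giving 0.28 to 0.35. On ND the same 23 genes had a median of 0.12 with no member called, and no member passed the test of the difference between diets. Read as HFHC over ND, the list median lay above 0 in both groups, at 0.33 in EAE larvae and 0.15 in control larvae. The list was thus not lower on the diet with egg powder, and the role of dietary cholesterol was not tested.

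**Figure D3:**
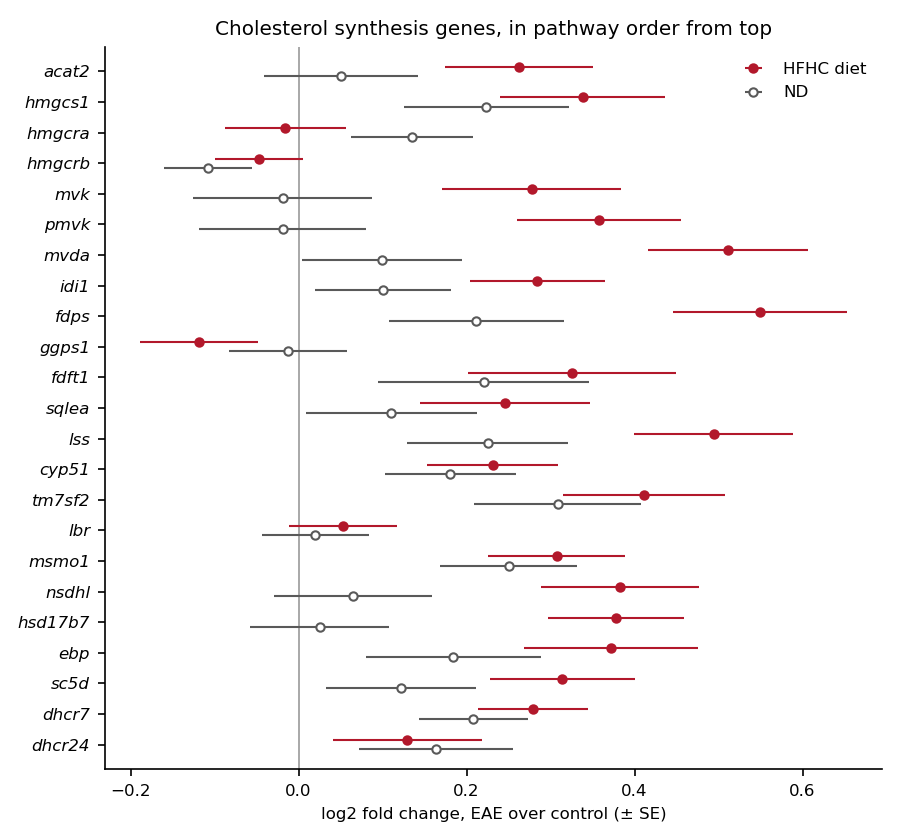
Log2 fold changes of EAE over control larvae (± SE) for 23 cholesterol synthesis genes, from acetyl-CoA (top) to cholesterol (bottom), on the HFHC diet (filled) and on ND (open), 3 samples per group. HFHC values ranged from -0.12 in ggps1 to 0.55 in fdps.

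The lists of neighbouring parts of lipid handling held no called gene except apom. The called genes mid1ip1a and tmem97, described above, were in none of these lists. Of 28 genes of sterol sensing, uptake and export tested, 3 had an unadjusted p under 0.05, all lower in EAE larvae (4.18% of all genes), among them the cholesterol exporter abca1a (-0.29), and the median was -0.08. Fatty acid and triglyceride synthesis genes had a median of -0.03 over 22 genes, and fatty acid oxidation genes one of 0.08 over 29 genes. Adipocyte genes had a median of 0.01 over 14 genes tested, of which 7 lay above 0 and 7 below. plin2 was at 0.15 and the adipose regulator pparg at 0.25 (edgeR adjusted p = 0.845 and 0.652), while cebpb was at -0.33 (edgeR adjusted p = 0.164). The list members adipoqa, lepa, lepb, plin1 and cidea had at most 11 counts in any of the 6 samples and were not tested, so differences in them were not detectable at this depth.

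Genes of bile acid synthesis and transport, the route by which cholesterol leaves the body, held no called member. cyp7a1, the rate-limiting enzyme of bile acid synthesis, was at 46.2, 53.2 and 57.5 CPM in EAE HFHC larvae, against 37.1, 36.6 and 24.7 CPM in control HFHC larvae (0.67 ± 0.16, edgeR adjusted p = 0.118). abcb11a, a bile salt export pump gene, was at 21.8, 24.8 and 16.5 CPM in EAE HFHC larvae, against 11.1, 16.0 and 13.2 CPM in control HFHC larvae (0.66 ± 0.14, edgeR adjusted p = 0.0728). Neither pair of groups overlapped, as in 7.5% of all genes with EAE higher. nr0b2a, whose mammalian counterpart represses bile acid synthesis, had a log2 fold change of -0.31 (edgeR adjusted p = 0.502). Its paralogue nr0b2b lay on the other side of 0, at 0.39 (edgeR adjusted p = 0.726). Of 22 genes tested, 16 were above 0 (51.6% of all genes), and the median was 0.18. At an unadjusted p under 0.05, 6 were higher (4.13% of all genes) and 1 lower (4.18% of all genes).

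Among the other higher genes, gstp2 and cish shared the pattern of muc5.3. gstp2 (chr14:3388236-3396402), a pi-class glutathione S-transferase that conjugates reactive compounds, was at 30.2, 30.8 and 38.5 CPM in EAE HFHC larvae, against 20.0, 16.7 and 17.0 CPM in control HFHC larvae (0.89 ± 0.15, edgeR adjusted p = 0.0268, 0 of 6 fits). Its ND means were 28.8 CPM in EAE larvae and 38.3 CPM in control larvae, so that control HFHC larvae were the lowest group. The paralogue gstp1 had a log2 fold change of 0.20 (edgeR adjusted p = 0.217). cish, a STAT5-induced inhibitor of cytokine and growth hormone signalling, was at 27.9, 26.2 and 29.1 CPM in EAE HFHC larvae, against 17.2, 18.3 and 21.7 CPM in control HFHC larvae (0.54 ± 0.11, edgeR adjusted p = 0.0476, 1 of 6 fits). On ND cish averaged 30.4 CPM in EAE larvae and 30.4 CPM in control larvae.

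In 3 further higher genes the EAE HFHC larvae were the highest of the 4 groups. fgf4 (chr7:54347408-54355224), a fibroblast growth factor, was at 17.7, 13.8 and 18.8 CPM in EAE HFHC larvae, against 8.99, 9.44 and 10.4 CPM in control HFHC larvae (0.80 ± 0.13, edgeR adjusted p = 0.0261, 2 of 6 fits). caspb (chr1:57315223-57329056), an inflammatory caspase, was at 134, 147 and 146 CPM in EAE HFHC larvae, against 108, 115 and 87.0 CPM in control HFHC larvae (0.46 ± 0.08, edgeR adjusted p = 0.0321, 2 of 6 fits). slc5a1 (chr10:17177667-17201797), the intestinal glucose transporter SGLT1, was at 219, 203 and 206 CPM in EAE HFHC larvae, against 162, 168 and 167 CPM in control HFHC larvae (0.34 ± 0.06, edgeR adjusted p = 0.0358, 0 of 6 fits). slc5a1 was higher in EAE larvae on ND too, with 160, 142 and 162 CPM in EAE larvae and 111, 118 and 122 CPM in control larvae (0.40, edgeR adjusted p = 0.0111). Over 22 enterocyte genes tested the median was 0.09, and 19 were above 0 (51.6% of all genes). At an unadjusted p under 0.05, 4 were higher (4.13% of all genes) and 1 lower (4.18% of all genes). slc5a1 was the one called, against 0.0814% of all genes called higher.

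**Figure D4:**
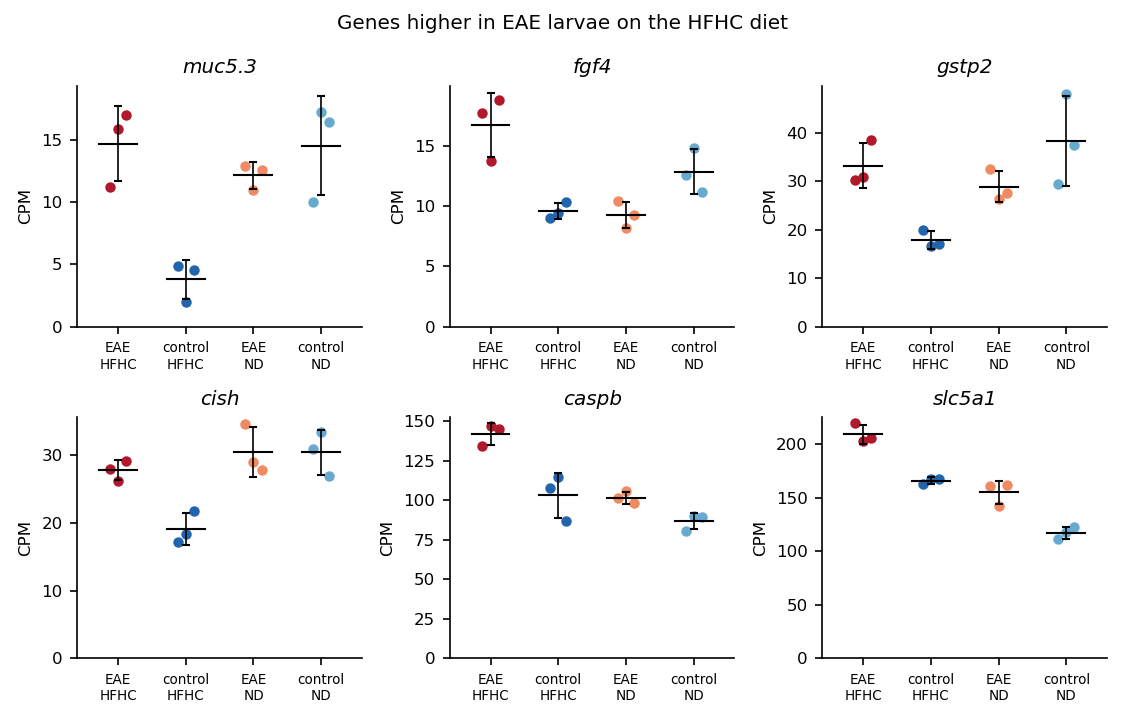
CPM of 6 higher genes in each pool (points), with the mean (bar) and SD (whiskers) of 3 pools, in EAE HFHC, control HFHC, EAE ND and control ND larvae. The control HFHC mean was the lowest of the 4 groups for muc5.3 (3.80 CPM), gstp2 (17.9 CPM) and cish (19.1 CPM), and the EAE HFHC mean was the highest for fgf4 (16.8 CPM), caspb (142 CPM) and slc5a1 (209 CPM).

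Of the 12 called genes with clone names, 6 were higher and 6 lower. si:ch1073-15f12.3, named here because it had the smallest p of all genes, was at 2.25, 1.91 and 2.26 CPM in EAE HFHC larvae, against 6.01, 7.73 and 6.46 CPM in control HFHC larvae (-1.65 ± 0.16, edgeR adjusted p = 0.000255). tuba8l5, an alpha-tubulin gene that the files list under a clone name and RefSeq under this symbol, was at 20.7, 19.7 and 22.3 CPM in EAE HFHC larvae, against 13.0, 14.0 and 13.1 CPM in control HFHC larvae (0.64 ± 0.09, edgeR adjusted p = 0.00498). In both, ND larvae of either group were at the level of EAE HFHC larvae.

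The study reported gene clusters more altered in EAE larvae on the HFHC diet than on ND, enriched for steroid, lipid and cholesterol processes. In the cholesterol synthesis list above no member passed the test of the difference between diets, a measure unlike those clusters. The study also named ahsg1, abcb11b, dhrs7b and gh1 among genes regulated differently in EAE larvae. It described their response to the HFHC diet as greater in EAE larvae (ahsg1, abcb11b) or unique to them (gh1, dhrs7b). For EAE against control HFHC larvae, the study counted genes with DESeq2 at a p threshold that it did not call adjusted. None of these genes passed the adjusted threshold here in that comparison. At an unadjusted p under 0.05 by edgeR (8.31% of all genes), ahsg1, abcb11b and dhrs7b passed and gh1 did not. ahsg1, a fetuin secreted by the liver (chr22:37920796-37927972), was at 9.04, 11.3 and 9.63 CPM in EAE HFHC larvae, against 39.1, 14.8 and 19 CPM in control HFHC larvae (-1.29 ± 0.27, edgeR adjusted p = 0.0678). Control replicate 1 stood far above the other controls, and without it the log2 fold change was -0.76 with an edgeR adjusted p of 0.145, whereas without control replicates 2 and 3 it was 0.0362 and 0.0447. Without a filter on low counts edgeR gave 0.0140, DESeq2 gave 0.035 and the remaining alternatives and leave-one-out fits gave up to 0.234. Its paralogue ahsg2 was at 78.2, 103 and 104 CPM in EAE HFHC larvae, against 253, 145 and 127 CPM in control HFHC larvae (-0.88 ± 0.21, edgeR adjusted p = 0.110). abcb11b, the other bile salt export pump gene, was at 101, 98.1 and 95.4 CPM in EAE HFHC larvae, against 80.0, 88.0 and 81.4 CPM in control HFHC larvae (0.24 ± 0.06, edgeR adjusted p = 0.130). dhrs7b, a peroxisomal reductase, had 1.75, 2.74 and 1.70 CPM in EAE HFHC larvae, against 0.701, 0.960 and 0.531 CPM in control HFHC larvae (1.52 ± 0.37, edgeR adjusted p = 0.118). gh1, growth hormone, had 9.89, 7.02 and 8.62 CPM in EAE HFHC larvae and 4.78, 6.77 and 6.64 CPM in control HFHC larvae (0.49 ± 0.23, edgeR adjusted p = 0.605). Its lowest EAE sample was just above its highest control. Set against ND, in comparisons that share these HFHC samples, ahsg1 had a log2 fold change of HFHC over ND of -2.68 in EAE larvae (edgeR adjusted p = 1.35e-05) and -1.33 in control larvae (edgeR adjusted p = 0.00136). For abcb11b the diet changes were 0.79 in EAE larvae (edgeR adjusted p = 1.29e-06) and 0.49 in control larvae (edgeR adjusted p = 5.28e-05). gh1 was higher on the HFHC diet in EAE larvae (1.49, edgeR adjusted p = 0.00139) and was at -0.36 in control larvae (edgeR adjusted p = 0.300), while dhrs7b was at 0.94 in EAE larvae (edgeR adjusted p = 0.0925) and -0.35 in control larvae (edgeR adjusted p = 0.597). Of the differences between these diet changes, that of gh1 had an edgeR adjusted p under 0.05 (1.85, adjusted p = 0.0413), and those of ahsg1, abcb11b and dhrs7b had 0.0976, 0.128 and 0.296.

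The list of liver-secreted proteins, the fetuins included, held no called gene. Of 31 genes tested, 26 were below 0 and 5 above, while 51.6% of all genes were above 0. At an unadjusted p under 0.05, 11 were lower (4.18% of all genes) and 2 higher (4.13% of all genes). The list median was -0.18 (-0.10 without control replicate 1). The complement gene c9 came nearest, at 120, 121 and 112 CPM in EAE HFHC larvae, against 170, 137 and 148 CPM in control HFHC larvae (-0.37, edgeR adjusted p = 0.0604). The most liver-specific marker, fabp10a, lay above 0, at 712, 688 and 721 CPM in EAE HFHC larvae, against 590, 643 and 580 CPM in control HFHC larvae (0.23, edgeR adjusted p = 0.428). The summed level of the list was between 11016 and 12157 CPM in EAE HFHC larvae and between 11669 and 12709 CPM in control HFHC larvae, which overlap. Markers of muscle, neurons, photoreceptors, exocrine pancreas and blood cells had list medians between -0.05 and 0.20 with no gene called, and 8 of all 26 lists held a called gene.

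**Figure D5:**
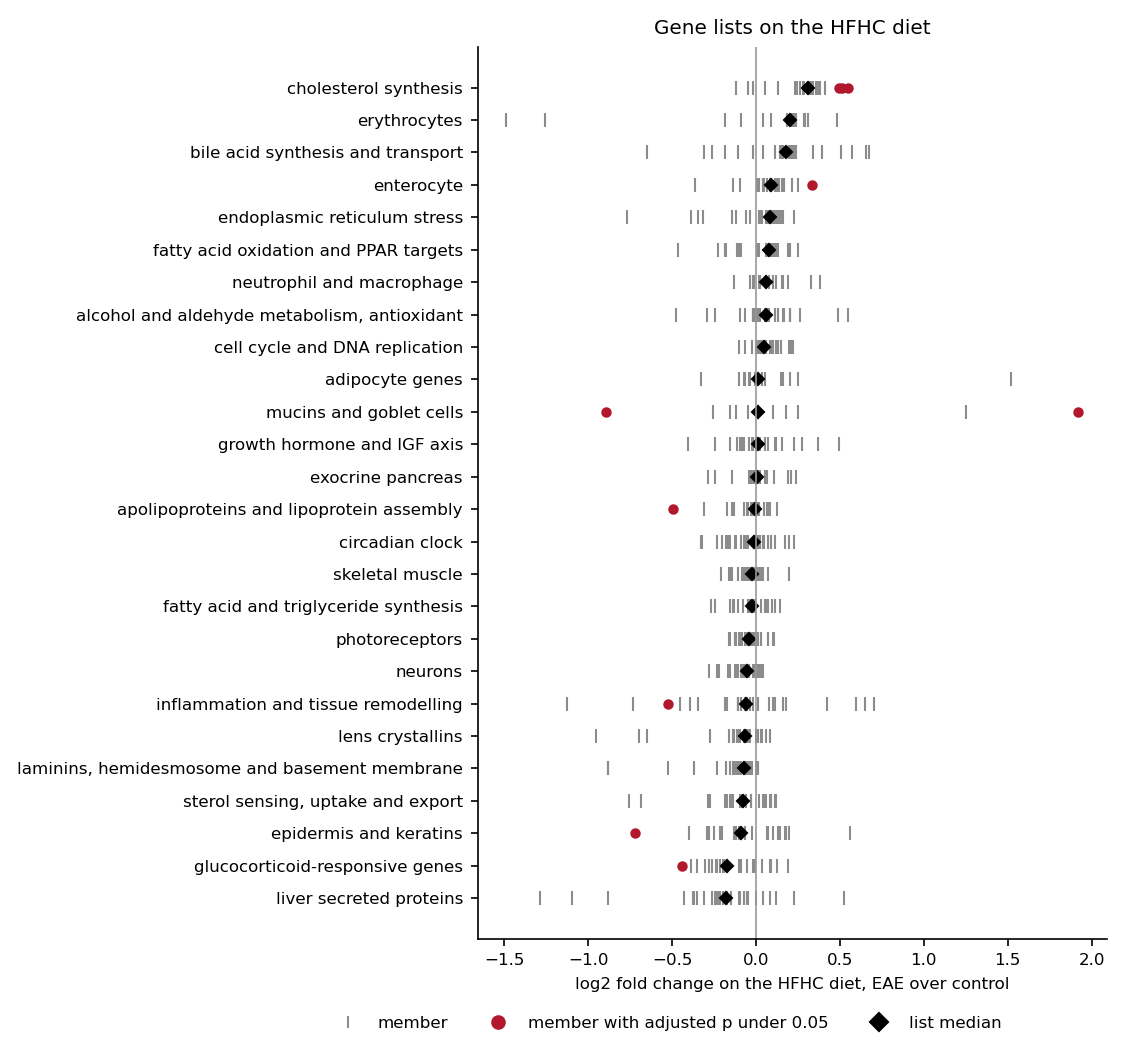
Log2 fold changes of EAE over control larvae on the HFHC diet for the members of 26 gene lists (ticks, with 1 member not shown), with members at an adjusted p under 0.05 as filled circles and list medians as diamonds. Cholesterol synthesis had the highest median, 0.31, and liver secreted proteins the lowest, -0.18.

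The effect of EAE on the same genes was read on ND, in samples that the HFHC comparison did not use. Of the 46 genes, 4 had an adjusted p under 0.05 on ND by edgeR, against 1.31% of all genes. slc5a1 and si:dkeyp-93d12.1 were higher in EAE larvae on both diets, while fkbp5 and si:ch211-157c3.4 were lower in EAE larvae on the HFHC diet and higher in EAE larvae on ND. At an unadjusted p there were 17 of 46, against 15.6% of all genes. The difference between the effects on the 2 diets had an adjusted p under 0.05 in 18 of the 46, against 0.254% of all genes, a share that selection on the HFHC contrast sets in part because both contain the HFHC samples. In 29 of the 30 lower genes the control HFHC mean was the highest of the 4 groups. Among the 16 higher genes the EAE HFHC mean was the highest in 12 and the control HFHC mean the lowest in 7. Read against ND by edgeR's adjusted p, 26 of the 30 lower genes were higher on the HFHC diet in control larvae, against 9.58% of all genes, and 8 were higher on it in EAE larvae, against 8.19% of all genes. These comparisons use the HFHC samples that chose the genes, so the orders and counts rest in part on that choice. fkbp5 had a log2 fold change of HFHC over ND of 0.73 in EAE larvae and 1.68 in control larvae.

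Livers of adult fish exposed to 1% or 0% EtOH as embryos and fed the HFHC diet gave no call in these genes. Only 1 of 12305 liver genes tested was called by edgeR, so this outcome was all but fixed in advance. Whether the larval differences persist in liver cannot be decided from it. The study reported more altered transcripts for this liver comparison at its adjusted threshold than were called here. Of the 43 genes matched by symbol to an Ensembl gene of the liver table, 20 passed its filter on low counts, with 0 called by edgeR and 0 by DESeq2, against 0.00813% of all liver genes called by edgeR. 3 of the 20 had an unadjusted p under 0.05, against 9.65% of all liver genes, and 10 had the sign of the larvae and 10 the opposite one. mvda averaged 4.89 ± 3.62 CPM in livers of the EtOH-exposed fish and 2.53 ± 0.48 CPM in control livers (SD, n = 5 each; log2 fold change 0.95, edgeR adjusted p = 0.492), and 1 of the exposed livers stood at 11.1 CPM. phkg1b averaged 12.2 ± 1.5 CPM in exposed livers and 16.8 ± 3.4 CPM in control livers (-0.46, edgeR adjusted p = 0.421). pptc7a, lower in EAE larvae, lay above 0 in livers (0.97, edgeR adjusted p = 0.518). muc5.2 and muc5.3 were not among the 20 liver genes tested.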

How the data were processed

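Poly(A)-selected mRNA of pooled larvae was read single-end, and the authors aligned larval reads to GRCz10 with STAR. They deposited raw read counts per gene symbol and TPM values, corrected for gene length. The program that counted larval reads is not given in the sources used here. Liver counts were made with STAR 2.3 and HTSeq 0.6.0, and the liver table's 10 columns divided by size factors, the authors' own fold changes and p-values, and 3 tables of other liver groups were left out.

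Counts of all 12 larval samples were filtered (filterByExpr), normalized by TMM and fitted with group means in edgeR 4.0.16 (R 4.3.3). Standard errors are the log2 fold change over the square root of F. Log2 fold changes are those of the edgeR fit, and only log2 CPM values carry a prior count of 2. Livers were fitted alone (10 samples). Named were the genes with an edgeR adjusted p under 0.05 and a symbol that is no clone or locus name (the 8 with the smallest p in each direction in every sample), list members and 4 genes from the study's text. Members and lists were chosen with earlier results of these data known. Simulated counts with known changes were used to test the fit. Positions are those of the liver table. Alternatives were DESeq2 1.42.0, RLE, other filters, limma 3.58.1 on TPM, a replicate block, the 6 HFHC samples alone and each sample left out. With 3 against 3 samples an exact permutation test cannot go below p = 0.10, so none was used. Values of 1 called gene are not reported here.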

Additional observations from a re-analysis of the deposited data

Results flagged for a closer look

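Among the called genes and the 4 genes taken from the study's text, the effect of EAE differed between the HFHC diet and ND in the 18 given here, by the interaction term (edgeR's quasi-likelihood test, Benjamini-Hochberg adjustment over all genes), against 50 of all genes tested. The values are the log2 fold change of EAE over control on the HFHC diet minus that on ND, and 17 of them had been called on the HFHC diet, which shares samples with the interaction.

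Higher on the HFHC diet relative to ND were muc5.3 (2.19, adjusted p = 0.0145), gh1 (1.85, adjusted p = 0.0413), zgc:163083 (1.43), gstp2 (1.29), fgf4 (1.26) and tuba8l5 (0.75). gh1 was lower in EAE larvae on ND (log2 fold change -1.36, edgeR adjusted p = 0.0257) and not called on the HFHC diet.

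The lower ones with a gene symbol were bcl6a (-1.14), bcl6ab (-1.09), dsc2l (-1.01, adjusted p = 0.0413), fkbp5 (-0.94, adjusted p = 0.00483), hif1al (-0.81), dusp5 (-0.69) and myzap (-0.61). The lower ones with clone names were si:ch211-69b7.6 (-1.84), si:ch1073-15f12.3 (-1.80), si:ch211-241e1.3 (-1.29), zgc:193505 (-1.09) and si:ch211-157c3.4 (-1.03).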

How the results depend on the processing

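The 46 called genes, 16 higher and 30 lower, became 130 (48 and 82) with DESeq2, 100 (41 and 59) without a filter on low counts, 92 (69 lower) with only the 6 HFHC samples, 17 (7 and 10) with limma on log2(TPM + 1) and 14 (6 and 8) on log2(TPM + 0.1). With the replicate block they became 22 (9 and 13), of which 21 were among the 46. Samples with the same number correlated between -0.05 and -0.01 after removal of group means, and those with different numbers between -0.03 and 0.06. Such correlations over many genes cannot exclude a pairing that acts on some genes, so whether the numbers pair the samples was not settled. Leaving out each sample gave 8 to 60 genes (3 to 16 higher, 4 to 44 lower). Of the 46, the genes still called numbered 45 with DESeq2, 41 with the 6 HFHC samples, and 16 and 14 with limma. All 46 kept their sign in every setting, which groups that did not overlap all but fixed in advance. Of the 46, those with an interaction call numbered 18, or 11 with limma at either pseudocount, and 10 to 23 in leave-one-out fits. Called on ND were 4 of the 46, or 8 with DESeq2, and 2 and 0 with limma on log2(TPM + 1) and log2(TPM + 0.1). The cholesterol synthesis median was 0.22 to 0.36 in leave-one-out fits. Why these counts moved was not tested. Genes under about 1 CPM, such as dhrs7b, rest on few reads.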

Other observations

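Gene groups outside the accounts above held no called member except ptgs2b. Of 29 inflammation and tissue remodelling genes tested, 6 had an unadjusted p under 0.05 with EAE HFHC larvae lower (4.18% of all genes) and 1 with them higher (4.13% of all genes), with a median log2 fold change of -0.06. The collagenase gene mmp13a had a log2 fold change of -0.74 (edgeR adjusted p = 0.152) and the gelatinase gene mmp9 one of -0.39 (edgeR adjusted p = 0.316). Neutrophil and macrophage markers summed to between 469 and 491 CPM in EAE HFHC larvae and between 409 and 514 CPM in control HFHC larvae. Of 31 alcohol metabolism and antioxidant genes, 22 were above 0 (51.6% of all genes) and 7 had an unadjusted p under 0.05 upwards (4.13% of all genes). Among these 7 were the thioredoxin gene txn (0.49, edgeR adjusted p = 0.159) and the aldehyde dehydrogenase gene aldh2.2 (0.55, edgeR adjusted p = 0.175). The globin genes hbaa1 (-1.26, edgeR adjusted p = 0.135) and hbba1 (-1.49, edgeR adjusted p = 0.158) were the lowest of the erythrocyte list, whose median was 0.20. Of its 14 genes tested, 10 were above 0 (51.6% of all genes). At an unadjusted p under 0.05, 4 were higher (4.13% of all genes) and 2, these globins, lower (4.18% of all genes). On ND the log2 fold changes were -3.77 for hbaa1 and -4.07 for hbba1 (edgeR adjusted p = 0.000542 and 0.00123).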
